A study of Mus musculus with 15 samples.

Results

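The genes described here encode the coat proteins of lipid droplets, Plin1 to Plin5, and the enzymes and cofactors that break down the triglyceride stored inside them, Pnpla2, Lipe, Mgll, Abhd5 and G0s2. They were chosen by name, and each gene was represented by the probe set that carried its symbol alone and had the highest mean over all samples. Plin1 had no such probe set in the annotation used and was not analysed here, which left 9 of 10 genes, among 18194 genes in all. All 9 lay above the filter on dim probe sets and were among the 13174 genes tested. They were read in interscapular brown adipose tissue, the heat-producing depot between the shoulder blades, of adult male C57BL/6N wild-type mice on a high-fat diet. Of 15 samples, 5 (aFGFR1/KLB 41 to 45) came from mice given the antibody bFKB1, an agonist of the receptor complex of FGFR1 and its co-receptor KLB, once at 10 mg/kg into the peritoneum. Another 5 (FGF21 36 to 40) came from mice given human FGF21, the hormone that acts through this complex, at 1 mg/kg in each of 2 daily injections. The last 5 (control 31 to 35) came from control mice, for which no injected substance is named. All tissue was taken at day 5, and the time between the last FGF21 dose and sampling is not given in the sources used here. Human FGF21 was thus given to mice, and each sample is a piece of whole tissue on its own array.

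Brown adipocytes keep triglyceride in many small droplets whose surface is covered by perilipins. At rest, Plin1 holds Abhd5 (also called CGI-58) on the droplet. When adrenergic signals raise cAMP and activate protein kinase A, Abhd5 is released and activates the lipase encoded by Pnpla2 (ATGL), which starts the breakdown of triglyceride. Lipe (hormone-sensitive lipase) and Mgll (monoglyceride lipase) complete it, and G0s2 inhibits the Pnpla2 product. The fatty acids released feed mitochondrial oxidation and activate uncoupling in brown fat.

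With both agonists Abhd5 and Plin2 rose, and with FGF21 Plin3 and Plin5 fell. These were the only members that passed the test in a comparison with control over all 15 samples (limma, adjusted p under 0.05 over 13174 genes). With the antibody 2 of 9 genes passed, both higher, beside 5.18% of all genes in either direction (2.69% higher and 2.49% lower). With FGF21 4 of 9 passed, 2 higher and 2 lower, beside 6.32% of all genes (2.64% higher and 3.68% lower). Between antibody and FGF21 0 of 9 passed, beside 0.372% of all genes, although 4 of 9 (Plin2, Plin3, Plin5 and G0s2) had an unadjusted p under 0.05, as did 13.5% of all genes. The median difference of the 9 genes was 0.04 for the antibody and −0.28 for FGF21 on the log2 scale, beside −0.02 over all genes in each comparison. With arrays centred on ribosomal protein genes, an alternative scaling, Abhd5 with the antibody was the only member that still passed. Plin2 was then 0.32 ± 0.13 (SE) with the antibody and 0.38 ± 0.13 with FGF21, against 0.23 ± 0.06 and 0.37 ± 0.06 without centring. Both comparisons use the same 5 control samples. In bulk tissue, fewer adipocytes and less RNA per adipocyte cannot be told apart.

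The stretches before the transcription starts of the 4 genes that passed are shown because they are the regions in which shared letters could be looked for. They are the 250 bases before the start as RefSeq gives it (GRCm38.p6), written 5′ to 3′ in the direction of the gene. Capitals mark the nuclear receptor half-site AGGTCA, the letters PPAR and related receptors bind, or the core TGACG of the cAMP response element, each on either strand. Plin5 has a pair of starts in RefSeq, and the stretches before both are printed.
Abhd5, chr9:122351366-122351615, plus strand: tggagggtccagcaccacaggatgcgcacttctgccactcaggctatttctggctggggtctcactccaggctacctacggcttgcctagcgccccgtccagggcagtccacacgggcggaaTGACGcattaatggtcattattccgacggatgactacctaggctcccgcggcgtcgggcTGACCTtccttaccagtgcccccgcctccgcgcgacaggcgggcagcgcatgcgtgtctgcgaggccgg
Plin2, chr4:86670060-86670309, minus strand: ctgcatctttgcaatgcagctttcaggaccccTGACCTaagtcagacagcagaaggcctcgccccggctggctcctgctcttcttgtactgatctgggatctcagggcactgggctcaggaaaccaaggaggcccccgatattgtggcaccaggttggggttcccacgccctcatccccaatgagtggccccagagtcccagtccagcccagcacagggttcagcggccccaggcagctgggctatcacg
Plin3, chr17:56290512-56290761, minus strand: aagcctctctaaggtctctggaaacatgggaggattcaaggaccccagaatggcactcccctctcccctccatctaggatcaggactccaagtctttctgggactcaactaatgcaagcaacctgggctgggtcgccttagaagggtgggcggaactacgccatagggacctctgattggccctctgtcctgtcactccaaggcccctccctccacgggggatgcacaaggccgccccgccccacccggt
Plin5 upstream start, chr17:56117549-56117798, minus strand: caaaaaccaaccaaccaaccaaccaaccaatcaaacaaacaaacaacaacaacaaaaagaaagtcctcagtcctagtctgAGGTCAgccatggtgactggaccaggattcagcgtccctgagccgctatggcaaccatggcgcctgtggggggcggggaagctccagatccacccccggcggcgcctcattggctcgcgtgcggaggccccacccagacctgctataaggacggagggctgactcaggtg
Plin5 downstream start, chr17:56117299-56117548, minus strand: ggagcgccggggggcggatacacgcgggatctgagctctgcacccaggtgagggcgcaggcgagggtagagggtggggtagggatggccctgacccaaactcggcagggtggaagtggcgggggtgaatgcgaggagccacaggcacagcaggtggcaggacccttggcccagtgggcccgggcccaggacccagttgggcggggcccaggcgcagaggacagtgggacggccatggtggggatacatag
All 10 genes matched a RefSeq entry, with 13 starts between them. The half-site AGGTCA stood before Abhd5, Plin2 and the more upstream start of Plin5, in 3 of 13 stretches, while 14.0% of 32851 stretches of this length held it. The core TGACG stood before Abhd5 and G0s2, beside 17.8% of all. No member held the PPAR response element (a pair of half-sites, 1 base apart), the whole cAMP element TGACGTCA, the ETS site CCGGAAGT or the glucocorticoid response element in this window, beside 0.0335%, 1.55%, 2.88% and 0.00913% of all. The forkhead site GTAAACA and the E-box CACGTG each stood before Lipe and Mgll, beside 3.17% and 6.02%. All motifs were searched on both strands, the TGACG core lies within the whole cAMP element and AGGTCA within the PPAR element, and a match is no sign of binding. Plin3, Plin4 and Plin5 lie together on chromosome 17, with 0 protein-coding genes between Plin4 and Plin5 and 7 others across the stretch from Plin4 to Plin3. The median difference of these 7 neighbours was −0.12 with the antibody and −0.04 with FGF21.

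Median intensities of the arrays lay between 50.6 and 52.1 on the linear scale, and samples correlated at 0.925 to 0.996 across genes. Markers of brown adipocytes were among the brightest genes of the arrays, with Ucp1 averaging 14.69 and Cidea 14.45 (log2 intensity, n = 15). The antibody changed 682 genes (51.9% of them higher) and FGF21 833 (41.8% higher). With arrays centred on 45 ribosomal protein genes these counts were 145 (77.2% higher) and 179 (66.5% higher). The log2 offset removed was largest in control 34 (0.34) and FGF21 36 (0.28), against −0.14 to 0.11 in the other arrays. 2 arrays stood apart. The mean of 13 macrophage markers was 8.89 to 9.59 in aFGFR1/KLB samples, 8.54 to 9.91 in FGF21 samples other than FGF21 36, and 8.25 to 9.31 in controls other than control 34. It was 11.18 in FGF21 36 and 10.71 in control 34. The mean of 9 fibroblast and matrix markers was 12.14 in FGF21 36 and 12.35 in control 34, against at most 11.28 in any other sample. The mean of 10 skeletal muscle markers ranged from 4.68 to 13.26 in aFGFR1/KLB samples, from 4.55 to 13.07 in FGF21 samples and from 9.02 to 10.89 in controls. Results below are given with all samples and, for most of the members, also without these 2 arrays. Genes of the lists further below are given with all samples only.

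**Figure D1:**
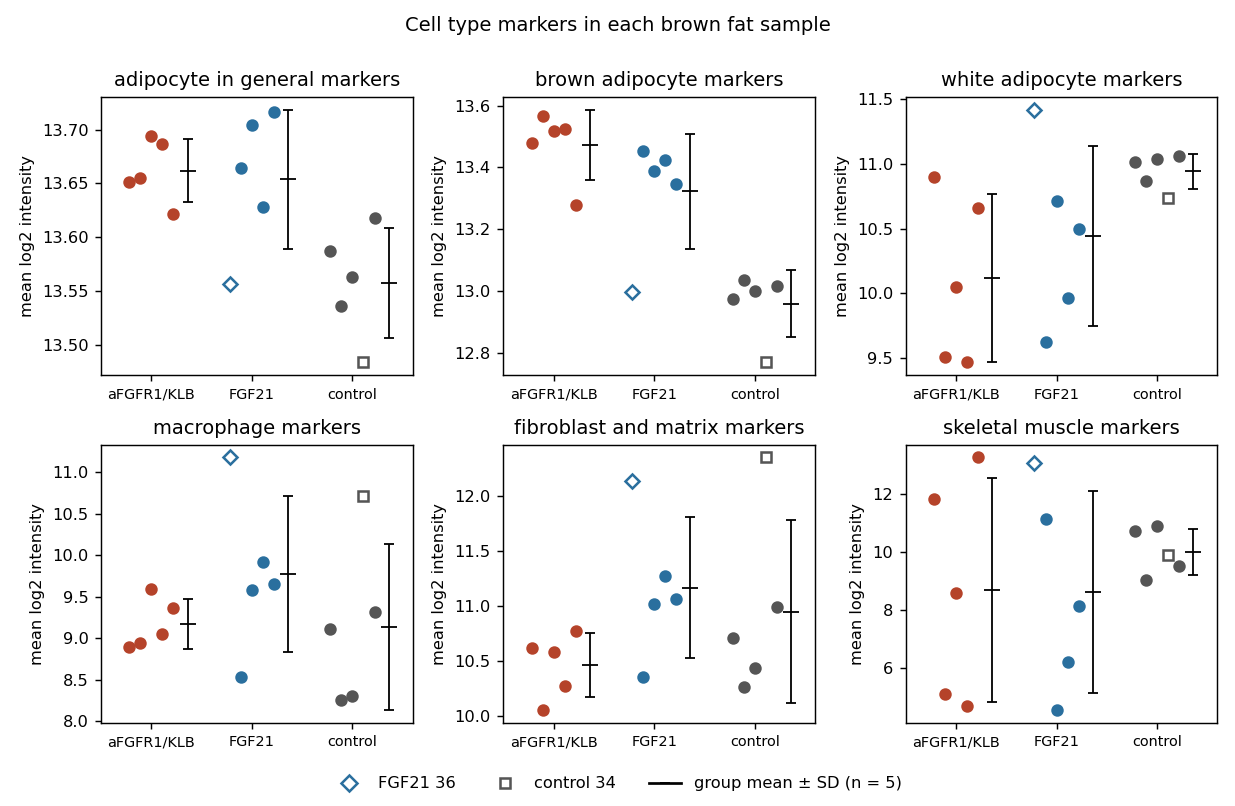
Mean log2 intensity of marker genes (y axis, array scale) in each of the 15 samples, grouped as aFGFR1/KLB, FGF21 and control (x axis); each point is 1 sample, open symbols are FGF21 36 and control 34, and the bars beside the points are the group mean ± SD. The macrophage means of FGF21 36 (11.18) and control 34 (10.71) lie above those of every other sample, and control 34 has the lowest brown adipocyte and general adipocyte means.

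Abhd5, the activator of the Pnpla2 lipase, rose with both agonists. Abhd5 measured 10.92, 11.07, 10.83, 10.69 and 10.44 in aFGFR1/KLB 41 to 45, 10.42, 10.92, 10.58, 10.73 and 10.57 in FGF21 36 to 40, and 10.12, 9.81, 10.10, 9.94 and 10.12 in control 31 to 35. Every treated sample of both groups lay above every control sample, with the lowest treated value in FGF21 36 and the highest control value in control 31. The groups averaged 10.79 ± 0.24 with the antibody, 10.65 ± 0.19 with FGF21 and 10.02 ± 0.14 in controls (log2 intensity, SD, n = 5 each). The antibody raised Abhd5 1.71-fold (log2 difference 0.78 ± 0.12 SE, 95% interval 0.52 to 1.03, limma adjusted p = 0.00233). FGF21 raised it 1.55-fold (0.63 ± 0.12, 0.38 to 0.88, adjusted p = 0.00603). The antibody minus FGF21 difference was 0.15 ± 0.12, with an interval from −0.11 to 0.40 (adjusted p = 0.583). Abhd5 had 2 more probe sets. 1 of them, at a mean of 10.21, was higher by 0.48 ± 0.10 with the antibody and by 0.59 ± 0.10 with FGF21 (adjusted p = 0.0185 and 0.00481 over all probe sets above the filter). The other, at a mean of 3.67, lay below the filter of 5.06 and was not tested. With the mean of all 3 probe sets, the dim one included, the differences were smaller, 0.42 with the antibody (adjusted p = 0.00723) and 0.39 with FGF21 (adjusted p = 0.00871). Without control 34 and FGF21 36 the differences were 0.76 (adjusted p = 0.00196) and 0.67 (adjusted p = 0.00367). When the 45 ribosomal protein genes set the scale of each array, the FGF21 difference was 0.64 with an adjusted p of 0.0836.

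Of the droplet coat genes, Plin2 rose with both agonists. Plin2, also called adipophilin, coats droplets in most cell types, macrophages among them. Plin2 measured 14.26, 14.37, 14.28, 14.19 and 14.25 in aFGFR1/KLB 41 to 45, 14.38, 14.44, 14.55, 14.29 and 14.42 in FGF21 36 to 40, and 14.12, 14.01, 14.08, 13.96 and 14.06 in control 31 to 35. Both treated groups lay above all 5 controls, and 4 of 5 antibody samples lay below all FGF21 samples. The means were 14.27 ± 0.07 with the antibody, 14.42 ± 0.09 with FGF21 and 14.04 ± 0.06 in controls (SD, n = 5 each). The rises were 1.17-fold with the antibody (0.23 ± 0.06, adjusted p = 0.0352) and 1.29-fold with FGF21 (0.37 ± 0.06, adjusted p = 0.00189). The antibody minus FGF21 difference was −0.15 ± 0.06 (interval −0.27 to −0.02, adjusted p = 0.288). The antibody call was lost without any 1 of control 32, 33 or 35, FGF21 40, or aFGFR1/KLB 41, 42, 43 or 45, with adjusted p up to 0.100, while its value stayed between 0.20 and 0.25. Control 34 had the lowest Plin2 value of all samples, 13.96. It also had the highest macrophage marker mean of the controls and the lowest general adipocyte marker mean of all samples. Among those adipocyte markers, Cidec was 12.04 in control 34, against 12.48 to 12.65 in the other controls, while Fabp4 lay within their range. With the macrophage marker mean as a covariate the differences were 0.23 with the antibody (adjusted p = 0.0147) and 0.39 with FGF21 (adjusted p = 0.000862). The part of cell makeup in the Plin2 result was not tested.

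Plin3, a perilipin that sits in the cytosol and moves to nascent droplets, was lowest in the FGF21 group. In aFGFR1/KLB 41 to 45 the values of Plin3 were 10.07, 10.29, 10.22, 10.10 and 10.09, in FGF21 36 to 40 they were 9.84, 9.87, 9.93, 9.97 and 9.85, and in control 31 to 35 they were 10.29, 10.40, 10.78, 10.19 and 10.20. The 5 FGF21 values lay within a narrow band below every other sample. The antibody samples overlapped with the controls, and 3 of 5 were below all controls. The means were 10.15 ± 0.10 with the antibody, 9.89 ± 0.06 with FGF21 and 10.37 ± 0.24 in controls (SD, n = 5 each). FGF21 lowered Plin3 to 0.718 of the control level (−0.48 ± 0.10, interval −0.69 to −0.27, adjusted p = 0.00947). With the antibody the difference was −0.22 ± 0.10 (interval −0.42 to −0.01, adjusted p = 0.231), and without control 33, the highest sample, it was −0.11 (adjusted p = 0.383). The antibody minus FGF21 difference was 0.26 ± 0.10 (adjusted p = 0.271), with no overlap between both groups, as for 4.69% of all genes.

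Plin5, the perilipin of oxidative tissues, which tethers droplets to mitochondria, was lower with FGF21. The level of Plin5 was 12.50, 12.52, 12.46, 12.52 and 12.36 in aFGFR1/KLB 41 to 45, 11.94, 12.12, 12.08, 12.10 and 12.16 in FGF21 36 to 40 and 12.61, 12.69, 12.54, 12.06 and 12.59 in control 31 to 35. FGF21 and antibody samples did not overlap, and control 34 stood with the FGF21 samples, 0.55 below the mean of the other 4 controls. The means were 12.47 ± 0.07 with the antibody, 12.08 ± 0.09 with FGF21 and 12.50 ± 0.25 in controls (SD, n = 5 each). FGF21 lowered Plin5 to 0.749 of the control level (−0.42 ± 0.10, interval −0.63 to −0.21, adjusted p = 0.0218). With the antibody the difference was −0.03 ± 0.10 (interval −0.24 to 0.19, adjusted p = 0.928). Without control 34 and FGF21 36 it was −0.14 ± 0.05 and did not pass (adjusted p = 0.101). Every antibody sample then lay below every control, and groups did not overlap for 16.4% of all genes. Antibody minus FGF21 was 0.39 ± 0.10 (interval 0.18 to 0.60), with an adjusted p of 0.108 over all 15 samples. Without control 34 and FGF21 36 that difference was 0.36 ± 0.05 and passed (adjusted p = 0.00453), beside 1.83% of all genes (0.797% higher and 1.03% lower), and so did the FGF21 difference (−0.49 ± 0.05, adjusted p = 0.000115). With all other arrays kept, the FGF21 call was lost without control 31, 32, 33 or 35 (adjusted p 0.0534 to 0.0652). It was also lost when only the 10 FGF21 and control arrays were fitted (adjusted p = 0.0924). The other Plin5 probe set above the filter differed by −0.45 ± 0.14 with FGF21 and did not pass (adjusted p = 0.0843).

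Plin4, a perilipin abundant in white adipocytes that coats small new droplets, spread widely. Plin4 measured 11.93, 11.41, 11.70, 11.46 and 11.96 in aFGFR1/KLB 41 to 45, 12.61, 11.69, 11.85, 11.55 and 11.90 in FGF21 36 to 40, and 12.21, 12.41, 12.38, 11.74 and 12.25 in control 31 to 35. Antibody samples lay between 11.41 and 11.96, below the 4 controls other than control 34, and FGF21 36 was the highest of all 15. The differences were −0.51 ± 0.19 with the antibody (interval −0.91 to −0.11, adjusted p = 0.139) and −0.28 ± 0.19 with FGF21 (interval −0.68 to 0.12, adjusted p = 0.453). Without control 34 and FGF21 36 both passed, at −0.62 ± 0.12 (adjusted p = 0.00503) and −0.57 ± 0.13 (adjusted p = 0.00856). Leaving out only control 34 or only FGF21 36 was enough for the antibody difference to pass (adjusted p = 0.0489 and 0.0449). The mean of 4 white adipocyte markers (Lep, Retn, Nnat and Trarg1) was 9.47 to 10.90 with the antibody, 9.63 to 11.42 with FGF21 and 10.74 to 11.06 in controls, highest in FGF21 36 as for Plin4. 1 of the 4 passed in limma, Trarg1, which fell with the antibody (−0.94, adjusted p = 0.00639) and with FGF21 (−1.22, adjusted p = 0.000881). The others did not go one way with FGF21, where Retn was 0.25, Nnat 0.26 and Lep −1.30 (adjusted p = 0.799, 0.787 and 0.192). With the antibody they were −0.42, −0.31 and −1.64 and did not pass. FGF21 36 also had the highest muscle marker mean of its group (13.07). Elsewhere in that group Plin4 was 11.69 in FGF21 37 (muscle 11.12) and 11.85 in FGF21 38 (muscle 4.55). In the antibody group Plin4 and the muscle mean were both highest in aFGFR1/KLB 45 and 41 (muscle 13.26 and 11.81). Among controls the highest Plin4 value, in control 32, went with the lowest muscle mean (9.02). The part of white adipocytes or muscle in the Plin4 result was not tested.

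**Figure D2:**
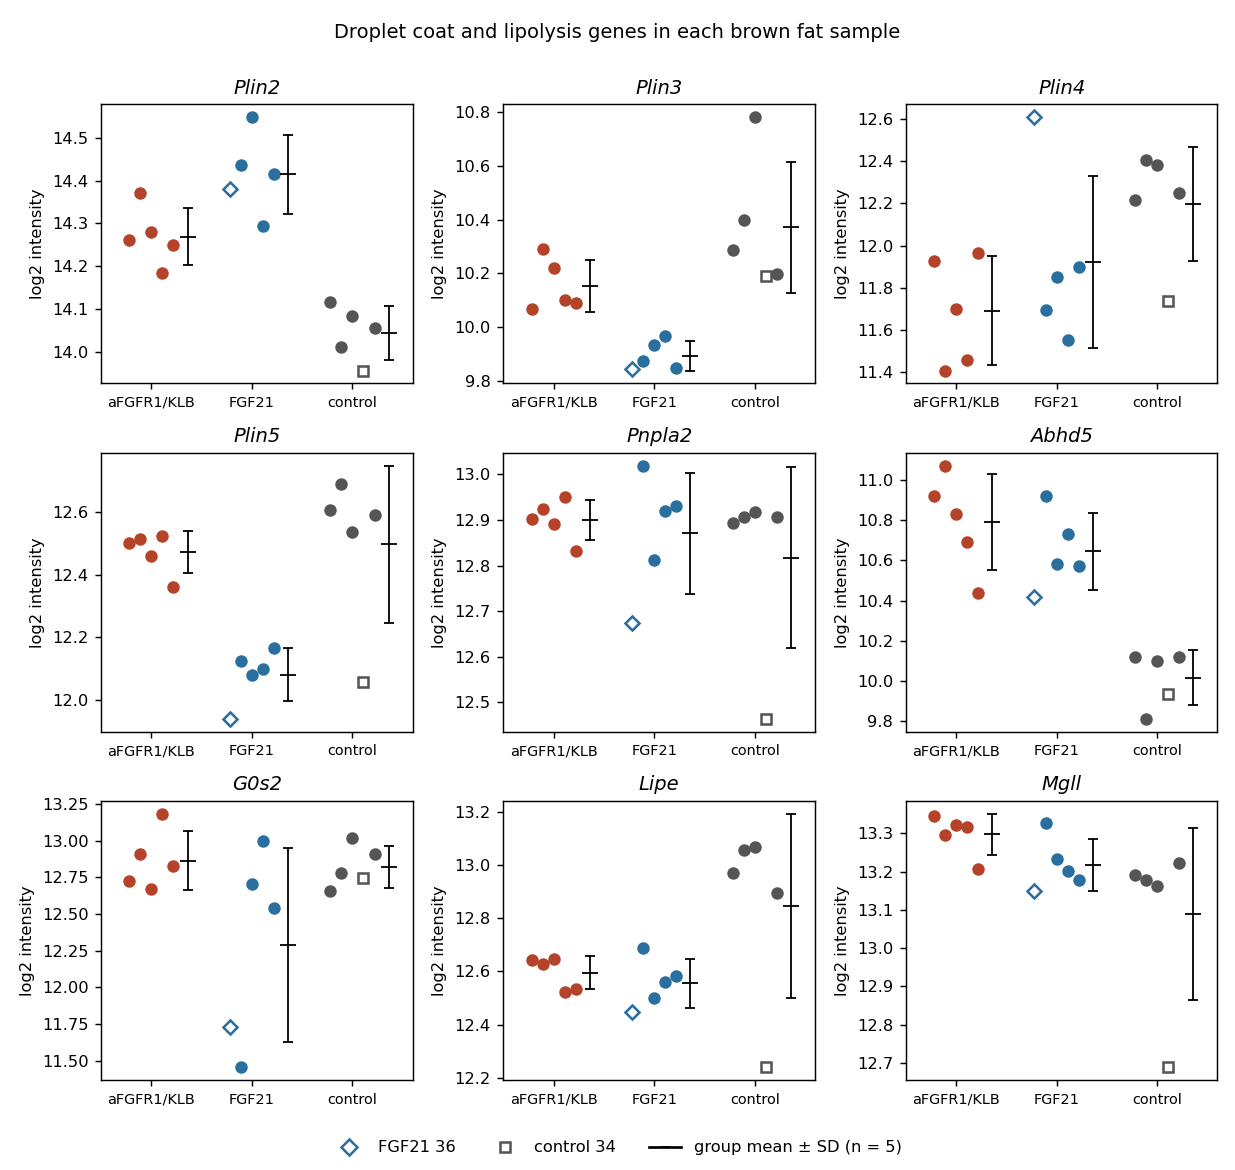
Log2 intensity (y axis, a separate scale in each panel) of the 9 genes in the 15 samples, grouped as aFGFR1/KLB, FGF21 and control (x axis); each point is 1 sample, open symbols are FGF21 36 and control 34, and bars are the group mean ± SD. All treated samples lie above all controls for Abhd5 and Plin2, and control 34 lies well below the other controls for Plin4, Plin5, Pnpla2, Lipe and Mgll.

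Pnpla2, the lipase that Abhd5 activates, did not pass in any comparison. Its values were 12.83 to 12.95 with the antibody, 12.67 to 13.02 with FGF21 and 12.46 to 12.92 in controls. The lowest value was that of control 34, and the other 4 controls lay between 12.89 and 12.92. The differences from control were 0.08 with the antibody (interval −0.11 to 0.27, adjusted p = 0.680) and 0.05 with FGF21 (interval −0.14 to 0.24, adjusted p = 0.797). Without control 34 and FGF21 36 they were −0.0063 and 0.015. A dimmer probe set of Pnpla2, at a mean of 7.84, was higher by 0.24 ± 0.16 with the antibody and by 0.38 ± 0.16 with FGF21, and did not pass (adjusted p = 0.470 and 0.205).

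G0s2, the inhibitor of that lipase, differed most within the FGF21 group. In aFGFR1/KLB 41 to 45 the values of G0s2 were 12.72, 12.91, 12.67, 13.18 and 12.83, in FGF21 36 to 40 they were 11.73, 11.45, 12.70, 13.00 and 12.54, and in control 31 to 35 they were 12.65, 12.78, 13.02, 12.75 and 12.91. 2 FGF21 samples, 36 and 37, lay below every other sample, and the other 3 lay within the range of the other groups or just below it. The mean was 12.86 ± 0.20 with the antibody, 12.29 ± 0.66 with FGF21 and 12.82 ± 0.14 in controls (SD, n = 5 each). The FGF21 difference was −0.54 ± 0.24 (interval −1.04 to −0.03, adjusted p = 0.216) and the antibody difference 0.04 ± 0.24 (interval −0.47 to 0.55, adjusted p = 0.951). Antibody minus FGF21 was 0.58 ± 0.24 (interval 0.07 to 1.08, adjusted p = 0.313). Without FGF21 37 the FGF21 difference was −0.33 (adjusted p = 0.387) and antibody minus FGF21 0.37 (adjusted p = 0.349). FGF21 36 and 37 had the highest muscle marker means of their group (13.07 and 11.12), and aFGFR1/KLB 45 and 41 had means of 13.26 and 11.81 with G0s2 at 12.83 and 12.72. With the muscle marker mean as a covariate the FGF21 difference was −0.66 and passed narrowly, in this fit only (adjusted p = 0.0492). The part of muscle in the G0s2 values was not tested.

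Lipe, the hormone-sensitive lipase that cleaves diglycerides, was lower in every treated sample than in 4 of 5 controls. The level of Lipe was 12.64, 12.63, 12.65, 12.52 and 12.53 in aFGFR1/KLB 41 to 45, 12.45, 12.69, 12.50, 12.56 and 12.58 in FGF21 36 to 40 and 12.97, 13.05, 13.07, 12.24 and 12.90 in control 31 to 35. Control 34 was the lowest of all, 0.76 below the mean of the other controls, and the highest treated value (12.69, FGF21 37) lay below the lowest other control (12.90). Over all samples the differences were −0.25 ± 0.13 with the antibody (interval −0.52 to 0.02, adjusted p = 0.302) and −0.29 ± 0.13 with FGF21 (interval −0.56 to −0.02, adjusted p = 0.205). Without control 34 and FGF21 36 they were −0.40 ± 0.06 (adjusted p = 0.00095) and −0.42 ± 0.06 (adjusted p = 0.000688). Leaving out control 34 alone gave −0.40 (adjusted p = 0.00188) and −0.44 (adjusted p = 0.000521). With the macrophage covariate and all samples the differences were −0.24 (adjusted p = 0.0634) and −0.16 (adjusted p = 0.279). Control 34 also had the lowest mean of the 5 general adipocyte markers (13.48, against 13.54 to 13.62 in the other controls). The 5 did not move alike. Cidec, itself a droplet gene, was 12.04 in control 34, against 12.48 to 12.65 in the other controls. Fabp4 was 14.95, within their range of 14.92 to 14.98. The part of cell makeup in the Lipe result was not tested. Antibody and FGF21 samples differed by 0.04 (interval −0.23 to 0.31, adjusted p = 0.906).

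Mgll, which cleaves monoglycerides, was 13.21 to 13.35 with the antibody, 13.15 to 13.33 with FGF21 and 12.69 to 13.22 in controls. 4 of 5 antibody samples lay above all controls, and control 34 was far below the rest. The differences were 0.21 ± 0.09 with the antibody (interval 0.02 to 0.40, adjusted p = 0.204) and 0.13 ± 0.09 with FGF21 (adjusted p = 0.463), and without the 2 arrays 0.11 and 0.046. Mgll had 3 more probe sets that could be tested, and 1 was higher by 0.42 ± 0.11 with the antibody and passed over all probe sets (adjusted p = 0.0494). The others differed by 0.16 ± 0.10 and −0.16 ± 0.10 and did not pass. With the macrophage covariate the antibody difference of the brightest probe set was 0.21 and passed (adjusted p = 0.0449).

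Without control 34 and FGF21 36, 4 of 9 genes passed with the antibody (Abhd5 and Plin2 higher, Lipe and Plin4 lower) beside 12.4% of all genes (5.41% higher and 6.97% lower). With FGF21 6 of 9 passed (the same 4 with Plin3 and Plin5 lower) beside 16.2% (6.77% higher and 9.46% lower). Groups then did not overlap for 5 and 6 of 9 genes, beside 16.4% and 21.1% of all genes, and between antibody and FGF21 for 2 of 9, beside 6.13%. Over all samples that held for 2 and 3 of 9, beside 8.61% and 5.25%. The plot of fitted differences sets both fits side by side.

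**Figure D3:**
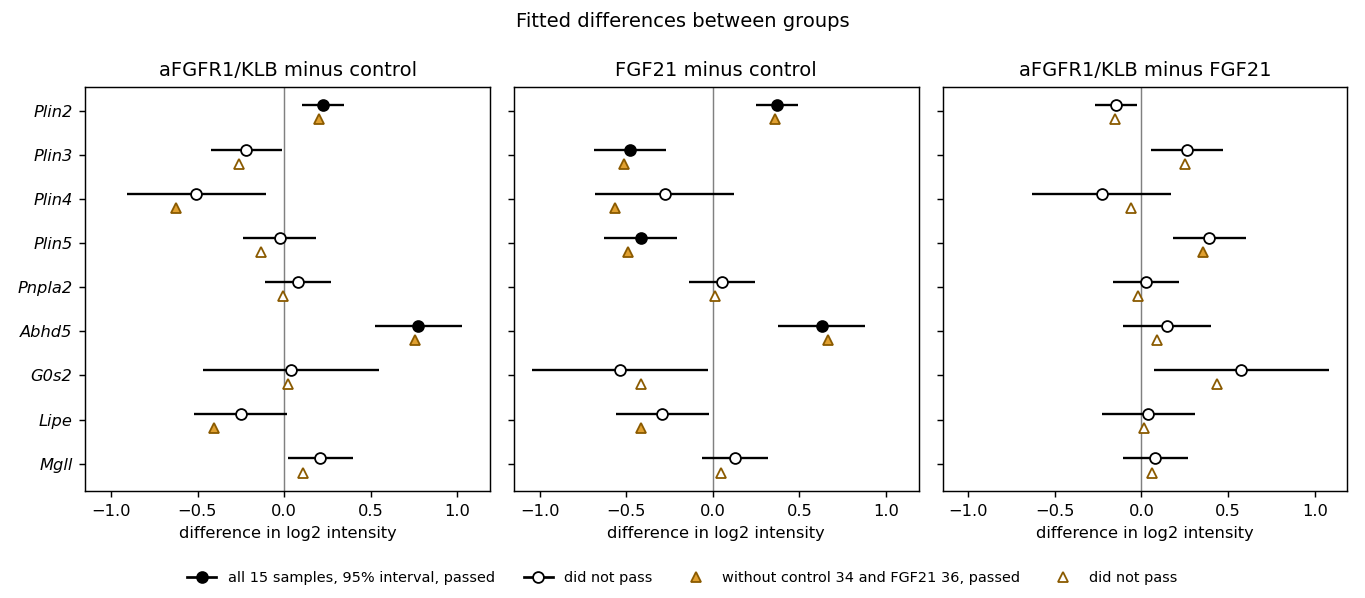
Differences in log2 intensity (x axis) between the groups named above each panel for the 9 genes (y axis); circles with 95% intervals are fits to all 15 samples, triangles are fits without control 34 and FGF21 36, and filled symbols passed. Abhd5 and Plin2 lie right of 0 in both comparisons with control, and Plin3 and Plin5 lie left of 0 with FGF21.

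Other genes of droplets and of lipid ester breakdown were counted from a list of 23, of which 21 were tested. With the antibody 1 of 21 rose and 0 fell in limma, beside 5.18% of all genes called, and with FGF21 1 rose and 1 fell, beside 6.32%, so neither count stood far from the share of all genes. The list's medians were 0.13 and 0.08, beside −0.02 over all genes in each. Acsl3, an acyl-CoA synthetase of nascent droplets, rose with the antibody (0.37 ± 0.08, adjusted p = 0.0171) and was −0.21 ± 0.08 with FGF21 (adjusted p = 0.149). Its antibody minus FGF21 difference passed (0.58 ± 0.08, adjusted p = 0.0068). Acsl3 measured 8.66, 8.83, 8.75, 8.95 and 8.80 in aFGFR1/KLB 41 to 45, 8.06, 8.39, 8.37, 8.08 and 8.19 in FGF21 36 to 40, and 8.43, 8.39, 8.60, 8.34 and 8.37 in control 31 to 35. All antibody values lay above all others. Ces1f, a carboxylesterase, rose with FGF21 (0.72 ± 0.13, adjusted p = 0.00572) and was 0.18 ± 0.13 with the antibody (adjusted p = 0.511). Pnpla3, a droplet relative of Pnpla2, fell with FGF21 (−1.09 ± 0.18, adjusted p = 0.00253), where its values were 8.23 to 8.64 against 8.77 to 9.86 in controls. With the antibody it was −0.53 ± 0.18 (adjusted p = 0.104), at 8.83 to 9.33. The lowest Pnpla3 control was control 34 (8.77), against 9.58 to 9.86 in the others. Every antibody value lay below those other controls. Among those that did not pass, Cidec, which fuses droplets, was 0.27 ± 0.09 with the antibody and 0.24 ± 0.09 with FGF21 (adjusted p = 0.120 and 0.167). Cidea, the related protein of brown fat droplets, was 0.06 ± 0.07 and −0.01 ± 0.07. Ddhd2, a triglyceride hydrolase known from brain, was 0.49 ± 0.14 and 0.37 ± 0.14 (adjusted p = 0.0634 and 0.148). Control 34 was the lowest control for Cidec (12.04, others 12.48 to 12.65) and Ddhd2 (11.90, others 12.29 to 12.38). It was also the lowest for Ces1f (8.98, others 9.31 to 9.67).

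Of 20 genes that carry signals to lipolysis, 16 were tested and the others were not analysed here. With the antibody 3 of 16 rose and 0 fell in limma, beside 2.69% of all genes higher and 2.49% lower. With FGF21 2 rose and 1 fell, beside 2.64% higher and 3.68% lower. The list's medians were 0.03 and 0.01, beside −0.02 over all genes in each. Adcy3, an adenylyl cyclase that makes cAMP, rose by 1.44 ± 0.23 with the antibody (adjusted p = 0.00347) and by 1.10 ± 0.23 with FGF21 (adjusted p = 0.0123). Its values were 10.94 to 11.90 with the antibody, at least 10.66 with FGF21, and 9.71 to 10.40 in controls. Every treated value lay above every control value. Pde3b, the phosphodiesterase that degrades cAMP downstream of insulin in adipocytes, rose by 0.39 ± 0.10 and 0.40 ± 0.10 (adjusted p = 0.0362 and 0.029). Insr, the insulin receptor, rose with the antibody (0.36 ± 0.07, adjusted p = 0.00889) and was 0.21 ± 0.07 with FGF21 (adjusted p = 0.0906). Ptger3, a prostaglandin receptor that lowers cAMP, fell with FGF21 (−1.11 ± 0.23, adjusted p = 0.0104) and was −0.47 ± 0.23 with the antibody (adjusted p = 0.279). Its lowest control value was again that of control 34, at 9.78 against 10.71 to 11.16 in the others. Hcar2 and Hcar1, receptors through which niacin, ketone bodies and lactate restrain lipolysis, were −0.62 ± 0.18 and −0.64 ± 0.29 with the antibody (adjusted p = 0.0593 and 0.243) and −0.55 ± 0.18 and −0.48 ± 0.29 with FGF21. Hcar2 and Hcar1 were dim, with group means between 5.37 and 6.34 against the filter of 5.06. The highest Hcar1 control was control 34 (7.15), against 5.56 to 6.08 in the others. The catalytic subunit Prkaca was 0.03 ± 0.08 and −0.14 ± 0.08 and did not pass.

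**Figure D4:**
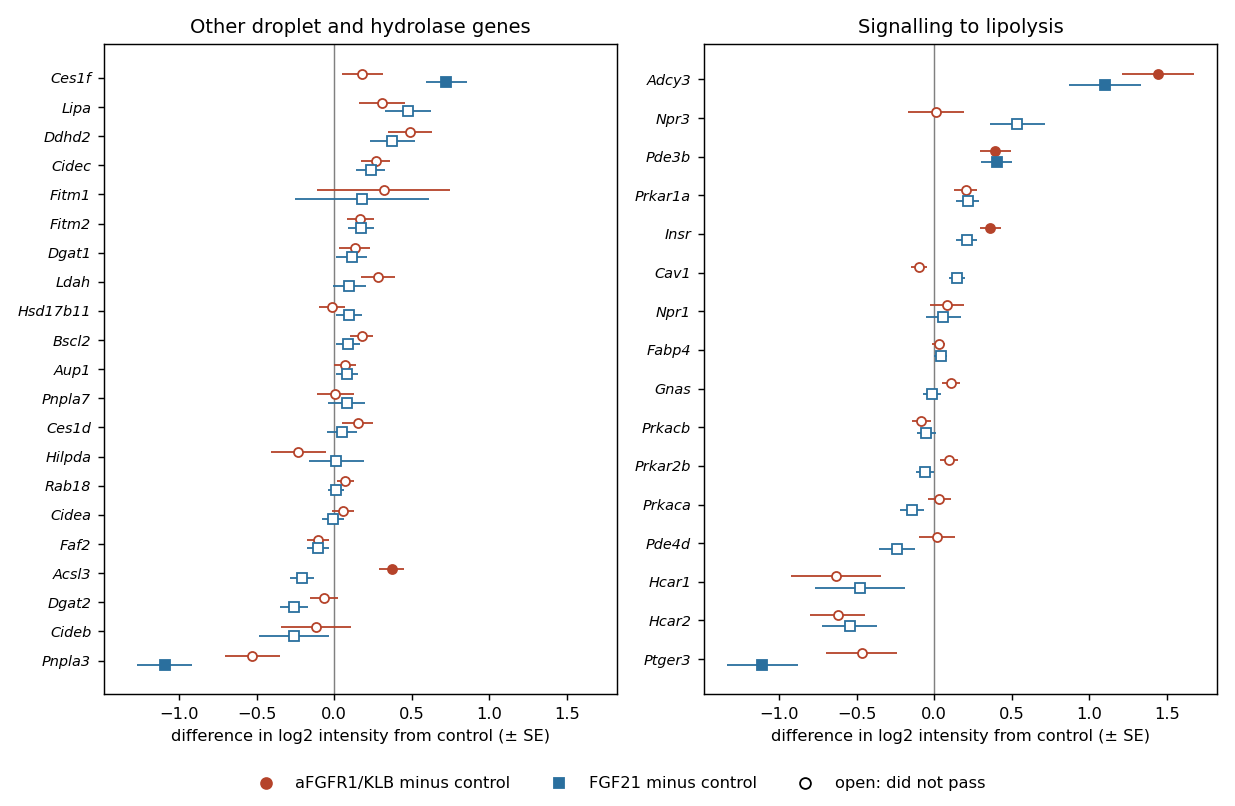
Differences from control in log2 intensity (x axis, ± SE) for the tested genes of both lists (y axis), with circles for aFGFR1/KLB and squares for FGF21; filled symbols passed. Adcy3 and Pde3b are filled for both agonists, and Acsl3 is filled on the right for the antibody and open on the left for FGF21.

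For each gene that passed, the genes with the most similar pattern over the 15 samples were listed by Pearson's r, as a description in which all genes share the arrays and the group differences. For Abhd5 these were Bsg (basigin, r = 0.943), Acot1 (an acyl-CoA thioesterase, 0.940) and Elovl3 (a fatty acid elongase of brown fat, 0.936). For Plin2 they were Pak1ip1 (0.947), the ubiquitin ligase Nedd4l (0.930) and the phosphate transporter Slc20a1 (0.929). For Plin3 they were Id3 (0.930), Supt3 (0.927) and Zfp395 (0.924), and for Plin5 Uhrf1bp1 (0.946), Hoxc5 (0.940) and Tmem268 (0.940). Among the members, Pnpla2 and Mgll were most alike (r = 0.86, n = 15), followed by Abhd5 and Plin2 (0.75). Abhd5 and Plin4 were most opposed (−0.68), with Plin2 and Plin3 at −0.67.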

How the data were processed

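Total RNA from 15 brown fat samples was read on 1 array each. For each probe set the authors deposited 1 normalised intensity, not on a log scale, between 5.58 and 34652. RMA was used, per the submitters' processing notes, which corrects background, normalises by quantiles and summarises probes; its version, chip definition and later steps are not given in the sources used here. Intensities were taken to log2. Of 45101 probe sets, 34958 carried 1 gene symbol, 932 several, and 9211 were unnamed here; each gene was its brightest probe set, and genes were tested if that mean exceeded 5.06, percentile 40 over probe sets. A model of 3 groups was fitted with limma 3.58.1 in R 4.3.3 (12 residual degrees of freedom, two-sided), with Benjamini-Hochberg adjustment over 13174 genes in each comparison. SE and 95% intervals are limma's. The fit was tested on simulated data. Groups came from sample titles, and the series calls samples biological replicates. The number of arrays limits the precision. The members, lists and alternatives were chosen with earlier results of these data known. Named were all members, list genes that passed (up to 8 a list), and 3 genes most like each member that passed; Cidec, Cidea, Ddhd2, Hcar1, Hcar2 and Prkaca were added after their values were seen. Promoter and gene names are RefSeq's (GRCm38.p6).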

Additional observations from a re-analysis of the deposited data

Results flagged for a closer look

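In 5 of 27 sets of 5 samples (9 genes in 3 groups), 1 sample lay farther from its nearest neighbour than Dixon's critical value of 0.71 of the group's range allows, and in each it was control 34 below the other controls. It was 11.74 for Plin4 (others 12.21 to 12.41), 12.06 for Plin5 (12.54 to 12.69), 12.46 for Pnpla2 (12.89 to 12.92), 12.24 for Lipe (12.90 to 13.07) and 12.69 for Mgll (13.16 to 13.22). Abhd5, G0s2, Plin2 and Plin3 showed no such sample in any group. The same rule picked out the mean of the brown adipocyte markers in FGF21 36 (13.00, others 13.35 to 13.45) and in control 34 (12.77, others 12.97 to 13.04). It also picked out the only tested erythroid marker in control 34 (6.12, others 6.97 to 7.20). In all, 8 of 54 sets were picked out, and chance picks about 1 in 20.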

How the results depend on the processing

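No paired analysis was possible because replicate numbers do not repeat between groups. Of 2 members called with the antibody, 1 remained (Abhd5) with no filter, with arrays centred on ribosomal protein genes and with a muscle covariate, and 4 passed with array weights or without control 34 and FGF21 36. Of 4 called with FGF21, 0 passed after ribosomal centring, and 3 with only the 10 arrays compared, where Plin5 did not pass. With array weights or without control 34 and FGF21 36, 6 passed, Lipe and Plin4 being added. G0s2 passed with FGF21 under the muscle covariate. Between antibody and FGF21, 1 passed (Plin5) with only the 10 arrays compared or without those 2 arrays, and 2 (Plin3, Plin5) with array weights. Leaving out 1 sample gave 1 to 4, 3 to 5 and 0 to 1 members called (antibody, FGF21, antibody against FGF21) and 336 to 1140, 463 to 2097 and 10 to 251 genes in all. The counts over all genes were 145 and 179 (ribosomal centring), 2307 and 2855 (array weights), 1631 and 2138 (without the 2 arrays) and 1761 and 1349 (macrophage covariate) for antibody and FGF21. FGF21 gave 322 with only its 10 arrays. Antibody against FGF21 gave 9, 832, 241 and 139 in those 4 fits, 87 with only its 10 arrays, 81 with trend and robust fitting and 82 with the muscle covariate, beside 49.

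Leaving out 1 sample moved the antibody difference of Plin5 between −0.14 and 0.024, of Pnpla2 between −0.0063 and 0.11 and of G0s2 between −0.039 and 0.090, the FGF21 difference of Pnpla2 between −0.035 and 0.10, and its antibody minus FGF21 difference between −0.021 and 0.065. Only values that did not pass changed sign. Plin5 with the antibody became 0.017 (mean of probe sets), 0.068 (ribosomal centring), 0.0022, 0.024 and 0.0029 (without control 31, control 32 or aFGFR1/KLB 45). Pnpla2 became −0.0063 with the antibody and −0.035 with FGF21 without control 34, and −0.0063 with the antibody without both arrays. For antibody against FGF21 Pnpla2 became −0.055 (mean of probe sets), −0.0065 (array weights), −0.021 (without FGF21 36, alone or with control 34) and −0.062 (macrophage covariate), and Lipe −0.084 (macrophage covariate). G0s2 with the antibody became −0.00068 (without control 31), −0.039 (without aFGFR1/KLB 44) and −0.078 (muscle covariate).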
